A study of Homo sapiens with 6 samples.

Results

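The 4 gene loci GOT1, NDUFAF6, OLFML2B and SLC19A1 each held a region bound by the estrogen receptor ERα with more ChIP fragments in cells with the K303R receptor than in cells with the wild-type (WT) receptor. They were picked from the measured ratio of K303R to WT, so that ratio describes them and tests nothing. A peak belonged to a locus when its summit lay in the gene's GRCh38 span or within 50 kb of it. This gave 368 of 690548 peaks in 6 lists, and after merging 89 of 175206 regions. Binding was measured by ChIP-seq (sequencing of immunoprecipitated chromatin) with the anti-ERα antibody D8H8 in MDA-MB-453, an established human breast cancer cell line. The 6 groups were K303R with E2, K303R without E2, Y537S with E2, Y537S without E2, WT with E2 and WT without E2, with 1 library each and no replicates. All 6, the WT controls included, carried a doxycycline-inducible ERα and received 2 µg/mL doxycycline for 2 days in medium with 10% fetal bovine serum, and the E2 groups also received 1 nM estradiol (E2). Whether the serum was free of hormones, and whether each line is 1 clone, is not stated. A receptor therefore cannot be told apart from the line that carries it. Peak lists hold no expression values, so the line was not checked against its markers.

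ERα is a nuclear receptor that estradiol activates and that binds DNA at estrogen response elements, often with forkhead and AP-1 factors nearby. K303R is a substitution in the hinge between the DNA-binding and ligand-binding domains, and Y537S lies in the ligand-binding domain and keeps the receptor active without hormone. The 4 genes have unlike roles. GOT1 encodes the cytosolic aspartate aminotransferase of the malate-aspartate shuttle, and NDUFAF6 an assembly factor of respiratory complex I. OLFML2B encodes a secreted olfactomedin-like protein, and SLC19A1 the reduced folate carrier, which takes folates and antifolate drugs into the cell.

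The 250 bases upstream of a start are printed for GOT1, OLFML2B and SLC19A1 because a peak of at least 1 library overlapped each of these windows, and at SLC19A1, which has several starts, the window shown is the one that the K303R-high region overlapped. The printed bases are from RefSeq (GRCh38.p14), given 5′ to 3′ on the gene's strand, with each single arm of the estrogen response element in capitals (GGTCA, or TGACC on the other strand).
GOT1, chr10:99430625-99430874, minus strand: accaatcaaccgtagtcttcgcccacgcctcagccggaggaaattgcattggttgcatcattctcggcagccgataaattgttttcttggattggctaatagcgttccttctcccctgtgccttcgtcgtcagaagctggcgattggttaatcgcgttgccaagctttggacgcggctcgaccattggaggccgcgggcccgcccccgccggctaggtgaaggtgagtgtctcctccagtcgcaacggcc
OLFML2B, chr1:162023870-162024119, minus strand: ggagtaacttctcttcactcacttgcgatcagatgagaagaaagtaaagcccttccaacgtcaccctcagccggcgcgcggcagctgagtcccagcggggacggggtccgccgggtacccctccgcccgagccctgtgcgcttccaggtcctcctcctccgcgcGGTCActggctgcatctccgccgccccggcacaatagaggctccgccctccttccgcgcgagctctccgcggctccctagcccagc
SLC19A1, chr21:45542441-45542690, minus strand: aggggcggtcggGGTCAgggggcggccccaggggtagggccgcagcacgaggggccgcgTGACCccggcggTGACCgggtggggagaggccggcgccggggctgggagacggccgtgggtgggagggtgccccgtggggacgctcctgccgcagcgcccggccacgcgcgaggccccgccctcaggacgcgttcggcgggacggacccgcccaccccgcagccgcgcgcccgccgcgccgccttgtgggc
The GOT1 window held no arm, the OLFML2B window held 1, and the SLC19A1 window held 3, starting at positions 13, 60 and 72 counted from 1 at the 5′ end. An arm was in 32.6% of 35116 RefSeq promoter windows of the same length. The full palindrome GGTCANNNTGACC, the forkhead motif TGTTTAC and the AP-1 motif TGANTCA, each searched on both strands, were in none of the 3 windows and in 0.0399%, 2.98% and 6.57% of all windows. The palindrome contains the arm on each side, and a match describes these letters only. The first 75 bases of the SLC19A1 window lay in its K303R-high region, while the whole GOT1 window lay in a region beside the K303R-high one. The window of another SLC19A1 start, at 45541847 to 45542096, shared 10 bases with a region listed in WT without E2 alone (15 fragments), held 0 arms and is not printed.

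At each peak, the number of fragments at the summit and the local background were recovered from the authors' fold enrichment and −log10 p-value. Regions found in all 6 lists with a mean of at least 50 summit fragments are called well covered here, 33626 in all. The median summit held 90 fragments in K303R with E2 and 73 without E2, 112 and 99 in Y537S, and 102 and 100 in WT at these regions. Ratios between libraries were divided by the ratio of these medians. A region is called higher or lower where the ratio was past 1.5-fold and an exact counting interval, wide enough to miss in 1 of 1000 cases by counting error alone, left out 1. Such a call compares 2 libraries and has no replicate check, and the printed 95% intervals cover counting error only. A date-like tag in the names of the peaks is the same in the K303R and WT lists and another in the Y537S lists, so Y537S and the tag cannot be told apart.

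Of the 89 regions, 22 were well covered, and these are the ones with calls. There were 5 of 18 at GOT1, 9 of 46 at NDUFAF6, 2 of 11 at OLFML2B and 6 of 14 at SLC19A1. The minimum mean includes the K303R libraries, so a region that is high there passes more easily. All 6 lists held 37 of the regions, and 18 were in 1 list. The K303R-high region of a locus is its well-covered region with the highest mean log2 ratio of K303R to WT over both treatments. By that mean the regions stood 2nd (GOT1), 9th (NDUFAF6), 10th (OLFML2B) and 14th (SLC19A1) among the 33626.

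**Figure D1:**
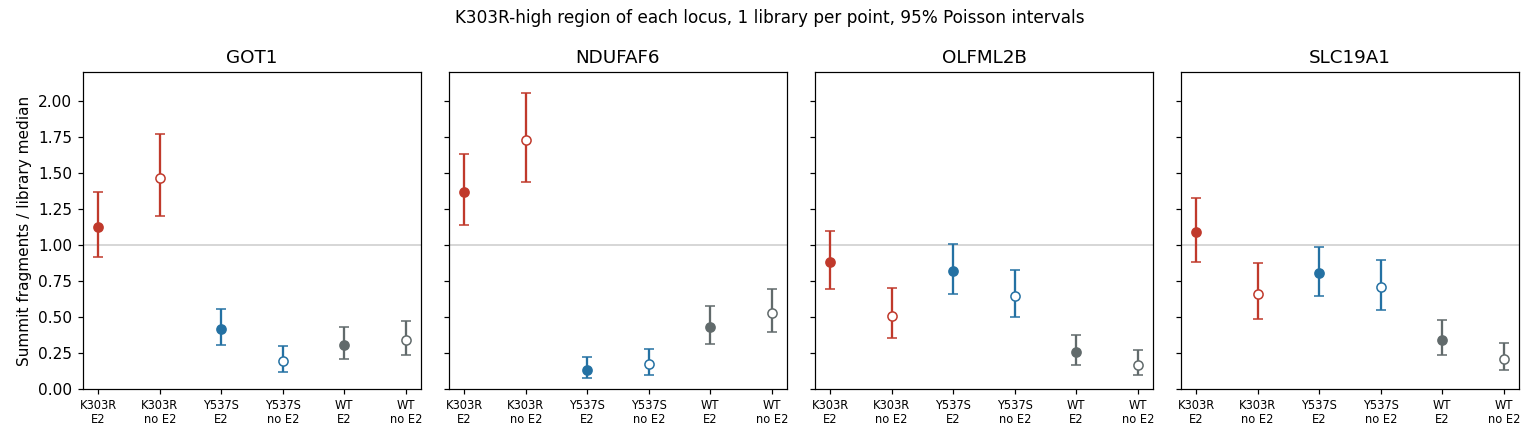
Summit fragments at the K303R-high region of each locus, divided by the library's median over well-covered regions, with 95% Poisson intervals. Each point is 1 library, filled with E2 and open without E2. The K303R points lie above the WT points at all 4 loci, while the Y537S points lie near or below WT at GOT1 and NDUFAF6 and near K303R at OLFML2B and SLC19A1.

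The GOT1 region had more fragments in K303R than in the other lines. It lay at chromosome 10, 99427558 to 99428048, inside the gene span and 2852 bp downstream of the gene start. It had 101 fragments with E2 and 107 without E2 in K303R, 47 and 19 in Y537S, and 31 and 34 in WT. Both K303R values lay above the other 4, and the highest of those was Y537S with E2. In the K303R lists, 13.8% of peaks with E2 and 10.3% without E2 had a higher −log10 p than this one. In the Y537S lists 38.4% with E2 and 73.8% without E2 did, and in the WT lists 51.5% and 48.6%. The ratio of K303R to WT was 3.69 with E2 (2.45 to 5.72) and 4.31 without E2 (2.91 to 6.54). K303R also stood above Y537S, 2.67-fold with E2 (1.87 to 3.87) and 7.64-fold without E2 (4.66 to 13.2), and both were called. Y537S was 1.38 times WT with E2 (0.859 to 2.25) and 0.564 times WT without E2 (0.304 to 1.02), with no call in either. The ratio of E2 to no E2 at GOT1 was 0.766 in K303R (0.578 to 1.01), 2.19 in Y537S (1.26 to 3.95) and 0.894 in WT (0.531 to 1.5), and none was called.

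The regions around GOT1 differed from one another. A region between CNNM1 and GOT1, 1659 bp past the 3′ end of GOT1 (99394887 to 99395528), had 195 fragments with E2 and 179 without E2 in K303R, 116 and 123 in Y537S, and 87 and 108 in WT. It was called higher in K303R than in WT (2.54 with E2, 2.27 without E2) and than in Y537S (2.09 with E2, 1.97 without E2). A region inside CNNM1, a gene of a family linked to metal ion transport, had 68 fragments with E2 and 39 without E2 in K303R, 110 and 87 in Y537S, and 37 and 23 in WT (99387594 to 99388483). There Y537S was the highest of the lines, at 2.71 times WT with E2 and 3.82 without E2, while K303R was called higher than WT with E2 (2.08) but not without E2 (2.32). Farther off in CNNM1, 69999 bp from the summit of the GOT1 region, K303R had 213 fragments with E2 and 191 without E2, Y537S 243 and 203, and WT 264 and 250. Its K303R to WT ratios were 0.914 with E2 and 1.05 without E2, with no call.

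The promoter of GOT1 lay in a region of its own. The region over the GOT1 start and the start of its divergent transcript GOT1-DT (99430194 to 99431373) had 37 fragments with E2 and 49 without E2 in K303R, 25 and 43 in Y537S, and 35 and 46 in WT. These values overlap, with K303R to WT ratios of 1.20 with E2 and 1.46 without E2, and the region was under the minimum mean. Inside GOT1-DT, a region at 99443381 to 99443968 had 16 fragments with E2 and 43 without E2 in K303R and 14 and 13 in WT, and was in neither Y537S list. Of the 18 regions at GOT1, 4 were in K303R lists alone, and their summits held between 8 and 13 fragments.

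The NDUFAF6 region was high in K303R, intermediate in WT and low in Y537S. It lay at chromosome 8, 95112509 to 95113277, inside the gene span. It had 123 fragments with E2 and 126 without E2 in K303R, 15 and 17 in Y537S, and 44 and 53 in WT. The 3 lines did not overlap, and the treatments of each line were close to each other. In the K303R lists, 11.7% of peaks with E2 and 8.64% without E2 had a higher −log10 p than this one, and in the Y537S lists 96.5% with E2 and 85.0% without E2 did. The ratio of K303R to WT was 3.17 with E2 (2.23 to 4.58) and 3.26 without E2 (2.34 to 4.58), and that of K303R to Y537S 10.2 with E2 (5.95 to 18.8) and 10.1 without E2 (6.03 to 17.8). Y537S was called lower than WT, at 0.310 with E2 (0.160 to 0.569) and 0.324 without E2 (0.176 to 0.568). E2 made no called difference, with ratios to no E2 of 0.792 in K303R, 0.780 in Y537S and 0.814 in WT.

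NDUFAF6 is a long gene, and its window held 46 regions, 32 of them inside the span. A peak 752 bp from the K303R-high summit (95113359 to 95113787) had 64 fragments with E2 and 59 without E2 in K303R, 14 in Y537S with E2 and none listed without E2, and 25 and 49 in WT. A region 3059 bp to the other side (95109328 to 95109962) had the opposite order. It was in neither K303R list, while Y537S had 40 fragments with E2 and 36 without E2 and WT 31 and 28. Where a list has no peak, the fragments are unknown and need not be 0.

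Around TP53INP1, a p53-induced gene whose span overlaps that of NDUFAF6, a region at 94948277 to 94948798 had 152 fragments with E2 and 147 without E2 in K303R, 110 and 74 in Y537S, and 84 and 99 in WT. It was called higher in K303R than in WT (2.05 with E2, 2.03 without E2). Nearby, a region at 94950194 to 94950621 was in neither K303R list and had 64 fragments with E2 and 42 without E2 in Y537S and 34 and 48 in WT. Within NDUFAF6 a pair of neighbouring strong regions differed. The one at 95074813 had 158 fragments with E2 and 172 without E2 in K303R, 169 and 139 in Y537S, and 126 and 134 in WT, and was called higher in K303R than in WT without E2 (1.76) but not with E2 (1.42). The one at 95075995 had 172 fragments with E2 and 172 without E2 in K303R, 229 and 186 in Y537S, and 172 and 187 in WT, with K303R to WT ratios of 1.13 with E2 and 1.26 without E2.

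On the far side, toward PLEKHF2, which encodes an endosomal protein, regions lay on both sides of WT. A region 280 bp outside the PLEKHF2 span (95133260 to 95133931) had 66 fragments with E2 and 66 without E2 in K303R, 52 and 39 in Y537S, and 33 and 54 in WT. It was called higher in K303R than in WT with E2 (2.27), and not without E2 (1.67). Inside PLEKHF2, the region at 95148251 to 95148885 had 32 fragments with E2 and 50 without E2 in K303R, 37 and 39 in Y537S, and 76 and 78 in WT. It was the single well-covered region of the 4 loci called lower in K303R, at 0.477 times WT with E2, against 0.878 without E2. Y537S was called lower there too, at 0.443 times WT with E2 and 0.505 without E2. Another well-covered region inside PLEKHF2 (95153134 to 95153700) had 134 fragments with E2 and 98 without E2 in K303R. Y537S had 114 and 88 there, and WT 129 and 138. Its K303R to WT ratios were 1.18 with E2 and 0.973 without E2, with no call. Also inside PLEKHF2, a region at 95154503 was in the WT lists alone, with 32 fragments with E2 and 36 without E2. At the other end of the window, regions at the spans of INTS8, a subunit of the Integrator complex, and CCNE2, which encodes cyclin E2, held at most 31 fragments in any library.

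The OLFML2B region had more fragments in both mutants than in WT. It lay at chromosome 1, 161999975 to 162000593, inside the span and 23621 bp from the gene start. It had 79 fragments with E2 and 37 without E2 in K303R, 92 and 64 in Y537S, and 26 and 17 in WT. All 4 mutant values lay above both WT values, and within each line the E2 library was the higher one. By the authors' fold enrichment, K303R without E2 (4.91) lay below WT with E2 (6.73) and above WT without E2 (4.42). The ratio of K303R to WT was 3.44 with E2 (2.19 to 5.59) and 2.98 without E2 (1.64 to 5.65). Y537S was called higher than WT as well, at 3.22 with E2 (2.07 to 5.19) and 3.80 without E2 (2.2 to 6.93). K303R was 1.07 times Y537S with E2 (0.781 to 1.46) and 0.784 times Y537S without E2 (0.508 to 1.19), and neither was called. Scaled by the lowest local background of each library, K303R without E2 was called lower than Y537S (0.478), and the call of K303R above WT without E2 was lost (2.21, 1.21 to 4.18). Under that scaling 44.7% of all well-covered regions were called lower in K303R than in Y537S without E2, against 10.3% in the main scaling.

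The closest regions to the OLFML2B summit, 2872 bp and 1230 bp away, had other patterns. The region at 162002878 to 162003377, also inside the gene, had 75 fragments with E2 and 57 without E2 in K303R and 25 and 21 in WT. Y537S had 19 fragments there without E2 and no listed peak with E2, so it was in 5 lists and not well covered. Its K303R to WT ratios were 3.40 with E2 and 3.72 without E2. On the other side, the region at 161998825 to 161999215 had 44 fragments with E2 and 51 without E2 in K303R, 38 and 25 in Y537S, and 35 and 54 in WT, and these overlap. The promoter region of OLFML2B was in the K303R list with E2 alone, with 9 fragments. The other well-covered region, 13062 bp from NOS1AP, an adaptor of neuronal nitric oxide synthase, had 71 fragments with E2 and 60 without E2 in K303R, 144 and 130 in Y537S, and 95 and 74 in WT. There Y537S was called higher than WT without E2 (1.77), and K303R was at 0.847 times WT with E2 and 1.11 without E2. ATF6, whose span reaches into the window, held no region there.

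The SLC19A1 region was high in both mutants and lay at a start of its gene. It was at chromosome 21, 45542616 to 45543318, with its summit 554 bp upstream of the start whose upstream bases are printed above. RefSeq places other SLC19A1 starts too, and the farthest lay 20031 bp upstream of the summit, so the region is inside the gene span. It had 98 fragments with E2 and 48 without E2 in K303R, 90 and 70 in Y537S, and 35 and 21 in WT. All mutant values lay above the WT values, again with the E2 library the higher in each line. The ratio of K303R to WT was 3.17 with E2 (2.14 to 4.81) and 3.13 without E2 (1.84 to 5.51). Y537S was called higher than WT, at 2.34 with E2 (1.57 to 3.57) and 3.37 without E2 (2.04 to 5.77). K303R was 1.36 times Y537S with E2 (1.01 to 1.82) and 0.930 times Y537S without E2 (0.630 to 1.36), with no call. Scaled by the lowest local background, the call of K303R above WT without E2 was lost (2.32, 1.36 to 4.07).

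SLC19A1 overlaps COL18A1, which encodes collagen XVIII, the source of endostatin, and most neighbours lay in that gene. The region where both spans overlap, at 45513332 to 45513941, had 100 fragments with E2 and 87 without E2 in K303R, 97 and 68 in Y537S, and 50 and 58 in WT. K303R was called higher than WT there (2.27 with E2, 2.05 without E2). A region in COL18A1 at 45454019 to 45454590 had 90 fragments with E2 and 76 without E2 in K303R, 123 and 82 in Y537S, and 56 and 52 in WT. It too was called higher in K303R than in WT with E2 (1.82) and without E2 (2.00). The neighbour 8929 bp from the SLC19A1 summit, at 45533521 to 45534478, had 181 fragments with E2 and 83 without E2 in K303R, 143 and 127 in Y537S, and 124 and 84 in WT. K303R was called higher than WT there with E2 (1.65) and not without E2 (1.35). The region at 45508579 to 45509327 had 77 fragments with E2 and 37 without E2 in K303R, 100 and 72 in Y537S, and 78 and 68 in WT, with K303R to WT ratios of 1.12 with E2 and 0.745 without E2 and no call. No region at this locus was in the K303R lists alone.

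**Figure D2:**
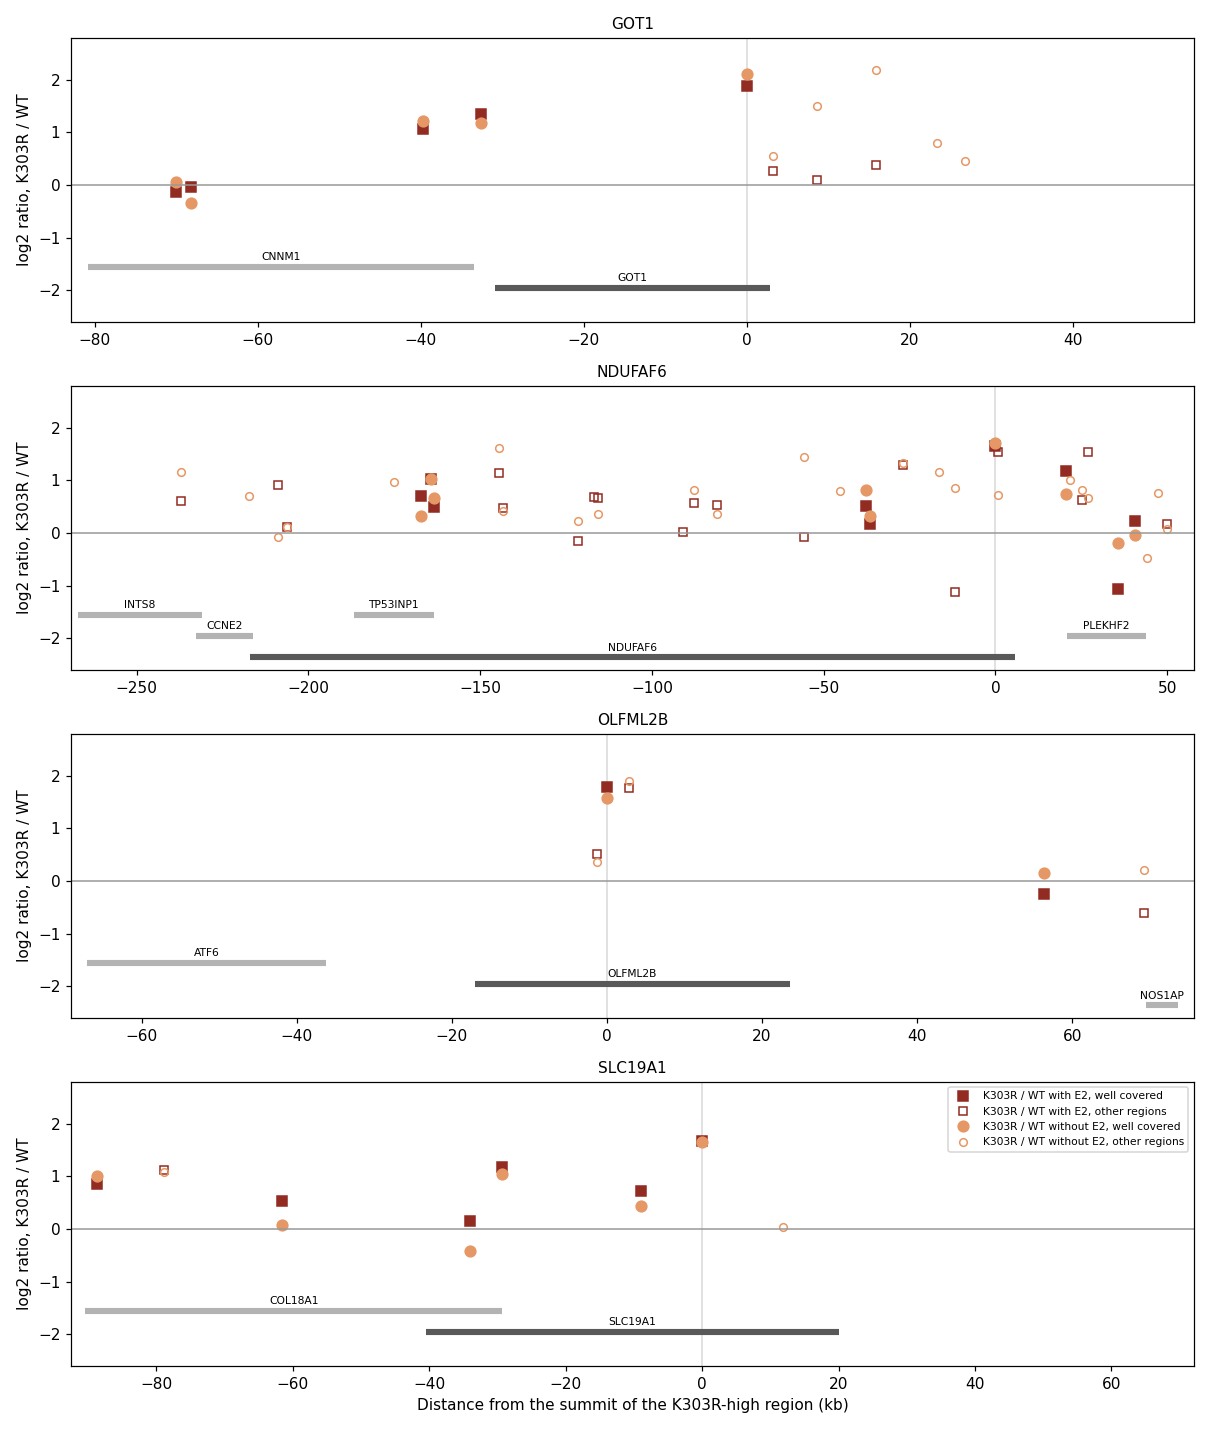
Log2 ratio of K303R to WT for the regions of each locus listed in both libraries, by distance of the summit from the K303R-high summit in kb. Filled marks are well-covered regions, open marks the others, squares with E2 and circles without E2, and bars show gene spans within the window. The K303R-high region is the highest filled mark by choice, and its filled neighbours at GOT1 lie at ratios from 0.914 to 2.54 with E2. At NDUFAF6 the well-covered region at 95148251 inside PLEKHF2 lies below 0 in both treatments.

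Values with E2 and without E2 ran differently at the 4 regions, although no E2 call was made at any of them in any line. At OLFML2B the ratio of E2 to no E2 was 1.73 in K303R (1.16 to 2.63), 1.27 in Y537S (0.914 to 1.78) and 1.5 in WT (0.783 to 2.94). At SLC19A1 it was 1.66 in K303R (1.16 to 2.39), 1.14 in Y537S (0.822 to 1.58) and 1.63 in WT (0.925 to 2.95). At NDUFAF6 all 3 ratios were under 1, and at GOT1 those of K303R and WT were. Scaled by the lowest local background, E2 was called higher in K303R at OLFML2B (2.28) and SLC19A1 (2.18), and the K303R ratios at GOT1 and NDUFAF6 were 1.01 and 1.04. Centred within 5 Mb windows, E2 was also called higher in K303R at OLFML2B (1.96, 1.31 to 2.98), and not at SLC19A1 (1.37). Scaling by the lowest background moved the median log2 ratio of E2 to no E2 over all well-covered regions to 0.36 in K303R, against −0.03 in the main scaling. Among neighbours, E2 was called higher in K303R at 45533521 (1.77) and at 45481082 in COL18A1 (1.88), where K303R had 137 fragments with E2 and 59 without E2. Over all well-covered regions 2.05% were called higher with E2 in K303R. In WT, E2 was called lower at 94945343 in TP53INP1 and NDUFAF6 (0.539), with 55 fragments with E2 and 100 without E2, where 0.684% of all regions were called lower. In Y537S none of the 22 was called, and 0.0862% of all regions were called higher and 0.0833% lower.

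The well-covered neighbours of the 4 regions were described by their counts. With E2, 7 of the 18 well-covered neighbours (38.9%) were called higher in K303R than in WT, where 6.33% of all well-covered regions were. Without E2, 5 of 18 (27.8%) were called higher, against 5.49% of all. Called lower were 1 with E2 and 0 without E2, against 7.89% and 5.86% of all. The median ratio of the neighbours was 1.44 with E2 and 1.31 without E2, beside 1.03 in both treatments over all well-covered regions. The loci were chosen by the same contrast, and neighbours share a locus, so these counts are a description and support nothing. Scaled by the lowest local background, 5 neighbours with E2 and 1 without E2 were called higher. Centred within 5 Mb windows there were 4 and 4, and the share over all regions is not given here for that setting. The first of these scalings put the median log2 ratio of K303R to WT over all well-covered regions at −0.09 with E2 and −0.39 without E2, against 0.05 and 0.04 in the main scaling, and 3.53% and 0.642% of them were then called higher. In both treatments 4 of the 18 neighbours were called higher in K303R than in WT, where 2.58% of all were. The 4 K303R-high regions were called higher in both as well, but this ratio chose them. None of the 22 was called lower in both, where 3.54% of all were.

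**Figure D3:**
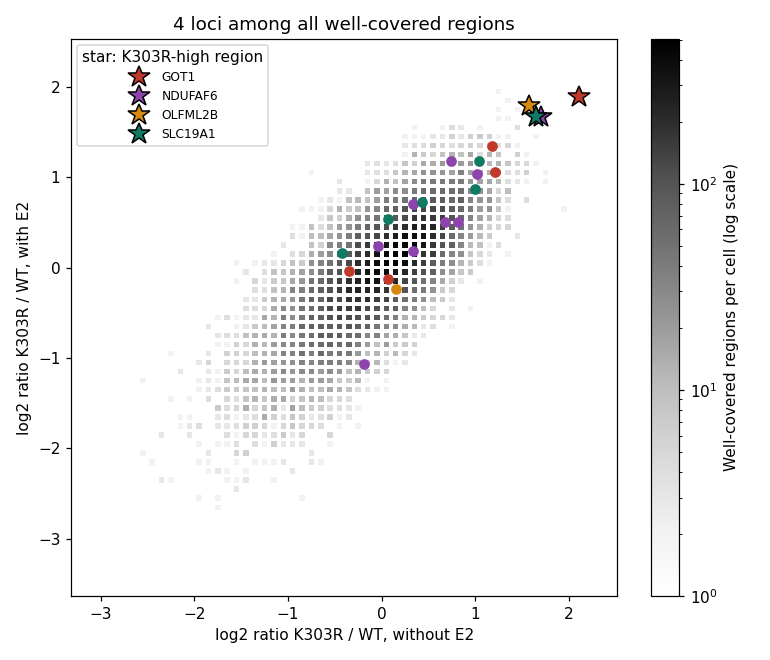
Log2 ratio of K303R to WT without E2 (x axis) and with E2 (y axis) for all 33626 well-covered regions, in grey by number of regions, with the 22 regions of the 4 loci in colour. Stars are the K303R-high regions, which lie at the upper right because they were chosen there. The neighbours, shown as dots, spread from below 0 to above 1 on both axes.

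The same 22 regions were set beside WT in Y537S. With E2, 4 were called higher and 2 lower in Y537S than in WT, where 6.06% and 8.59% of all well-covered regions were. Without E2, 5 were higher and 2 lower, against 8.05% and 9.15% of all. In both treatments 3 regions were higher in Y537S than in WT, against 3.34% of all, namely the K303R-high regions of OLFML2B and SLC19A1 and the CNNM1 region at 99387594. In both treatments 2 were lower, against 4.79% of all, namely the NDUFAF6 K303R-high region and the PLEKHF2 region at 95148251. K303R was called higher than Y537S at 5 regions with E2 and 7 without E2, against 12.5% and 14.7% of all, and lower at 1 and 1, against 8.9% and 10.3%. Scaled by the lowest local background, K303R without E2 was called higher than Y537S at 3 regions and lower at 7, against 2.27% and 44.7% of all. The median log2 ratio over all regions was then −0.65, against 0.06 in the main scaling. The ratios of K303R to WT and of Y537S to WT share the WT libraries, so their likeness at a region was not measured.

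**Figure D4:**
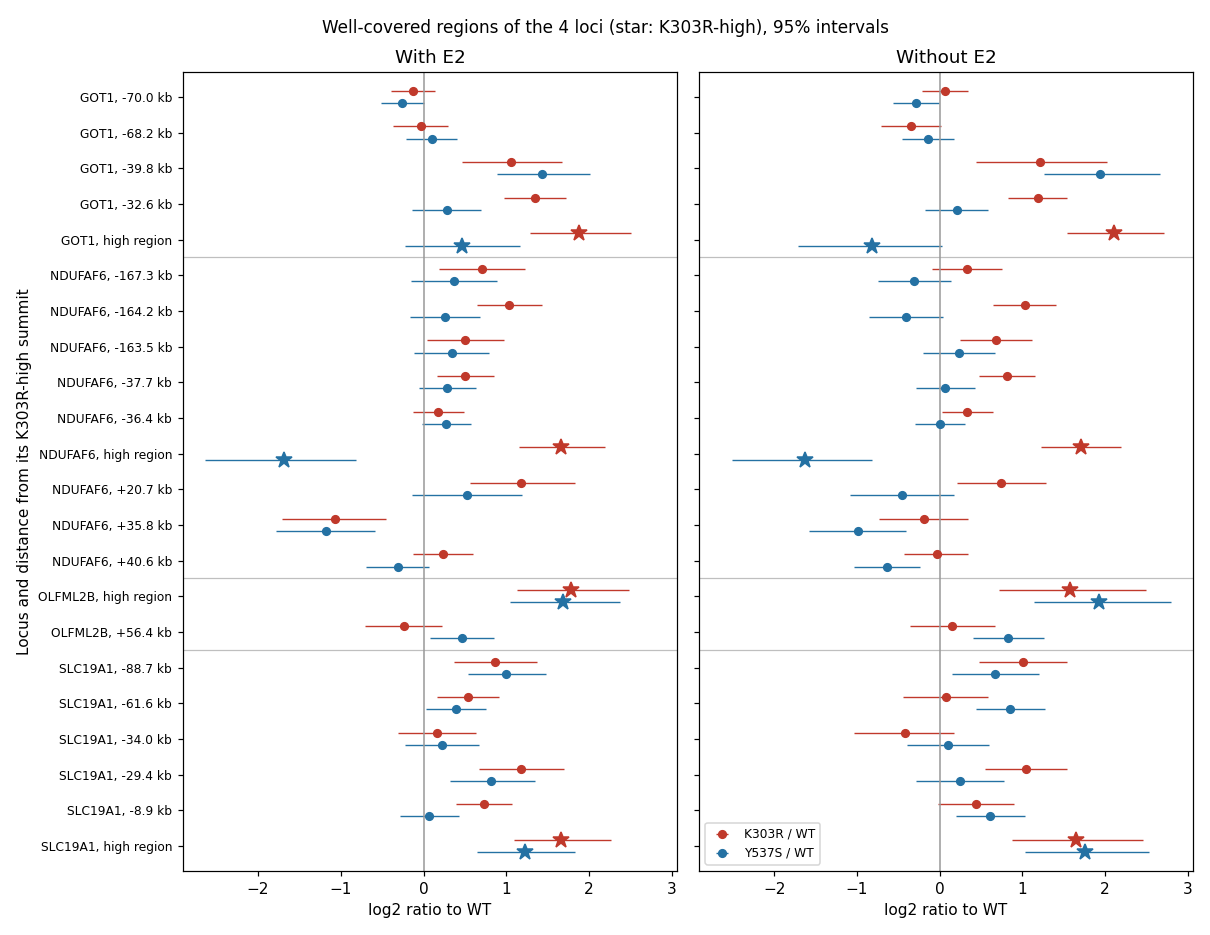
Log2 ratios of K303R to WT (red) and of Y537S to WT (blue) at the 22 well-covered regions of the 4 loci, with 95% counting intervals, with E2 on the left and without E2 on the right. Rows give the locus and the distance in kb from its K303R-high summit, and stars mark the K303R-high regions. Both mutants lie right of 0 at the starred regions of OLFML2B and SLC19A1, and the NDUFAF6 star has K303R to the right and Y537S to the left.

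Local background was higher in K303R than in WT around the 4 regions, and at SLC19A1 it was as high or higher in Y537S. By its values it is taken here as the fragments of the same ChIP library in a window 10 kb wide around the summit, the summit's own included. It is therefore no independent measure of the binding at the summit. At GOT1 it was 6.60 fragments with E2 and 8.20 without E2 in K303R, 3.65 and 3.07 in Y537S, and 3.50 and 4.05 in WT. At NDUFAF6 it was 9.28 with E2 and 10.6 without E2 in K303R, 3.26 and 3.58 in Y537S, and 4.69 and 6.45 in WT. At OLFML2B it was 8.12 with E2 and 6.73 without E2 in K303R, 5.47 and 3.73 in Y537S, and 3.01 and 3.07 in WT. At SLC19A1 it was 4.08 with E2 and 2.73 without E2 in K303R, 4.13 and 3.60 in Y537S, and 1.87 and 1.55 in WT. Without any centring, the K303R to WT ratio of background was 1.88 to 2.70 with E2 and 1.64 to 2.19 without E2 over the 4, beside medians of 0.948 and 0.819 over all well-covered regions. The summit's own fragments made up 9.74% (NDUFAF6, Y537S with E2) to 53.6% (SLC19A1, K303R with E2) of those in the 10 kb window. With them taken off and libraries centred on their medians, the fragments beside the summit had K303R to WT ratios of 1.68 with E2 and 2.10 without E2 at GOT1, 1.91 and 1.76 at NDUFAF6, 2.83 and 2.63 at OLFML2B, and 1.85 and 1.82 at SLC19A1. Those of Y537S to WT were 0.898 with E2 and 0.916 without E2 at GOT1, 0.757 and 0.691 at NDUFAF6, 1.38 and 0.997 at OLFML2B, and 1.91 and 2.23 at SLC19A1. Neighbouring peaks inside that window are among these fragments.

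The authors' fold enrichment divides by that background, and by it the differences were smaller. Centred in the same way, the ratio of K303R to WT in fold enrichment was 2.04 with E2 and 1.98 without E2 at GOT1, and 1.65 and 1.77 at NDUFAF6. It was 1.41 with E2 and 1.30 without E2 at OLFML2B, and 1.68 and 1.78 at SLC19A1. By this measure 2.92% of all well-covered regions with E2 and 8.31% without E2 had a higher ratio than OLFML2B, while under 1% did for each of the other 3 regions. The fold ratio of K303R to Y537S was 1.44 with E2 and 2.96 without E2 at GOT1, 3.57 and 3.46 at NDUFAF6, and 0.677 and 0.443 at OLFML2B. The fold ratio of Y537S to WT at SLC19A1 was 1.38 with E2 and 1.68 without E2. The part of the background in these differences was not tested.

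**Figure D5:**
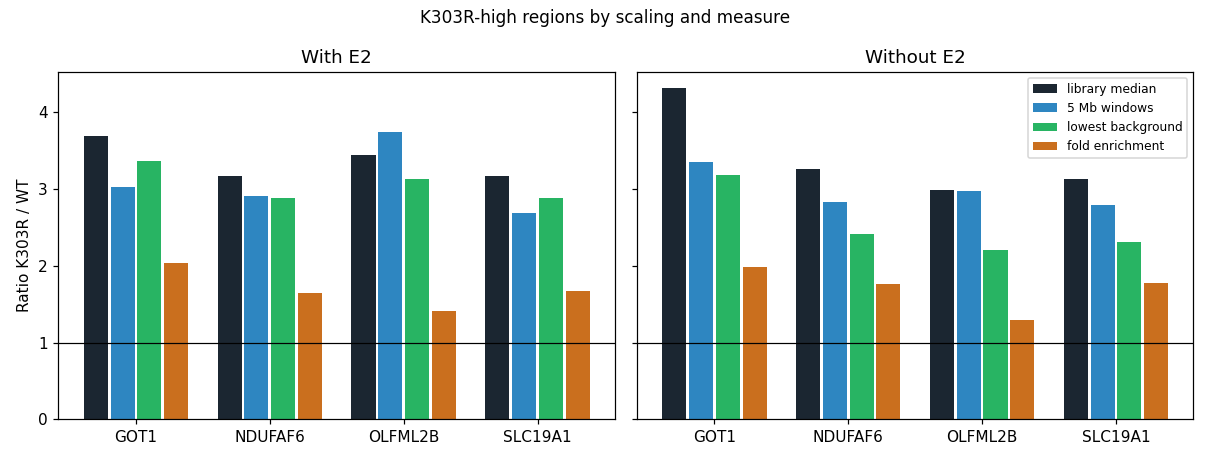
Ratio of K303R to WT at the K303R-high region of each locus by 4 measures, with E2 on the left and without E2 on the right. Bars start at 0 and the line marks a ratio of 1. All bars are above 1, and the fold enrichment bars are the lowest at each locus, at 1.30 to 2.04.

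The 4 regions were chosen for a high ratio of K303R to WT, so wider surroundings closer to WT follow from that choice. In 5 Mb windows around the 4 regions the median ratio of K303R to WT lay between 0.921 (OLFML2B) and 1.22 (GOT1) with E2, and between 1.00 and 1.28 without E2 at the same loci. Centred within these windows, all 4 K303R-high regions were still called, with ratios of 2.68 to 3.74 with E2 and 2.79 to 3.36 without E2. Peaks of the K303R-high regions were narrow, from 248 to 753 bp wide, and each region had 1 peak in every library. Their summits lay within 93 bp of each other over the 6 lists at GOT1, 88 bp at NDUFAF6, 29 bp at OLFML2B and 87 bp at SLC19A1. In all, 13 of the 89 regions (14.6%) were in K303R lists alone, with at most 23 fragments, against 7.93% of all merged regions. In Y537S lists alone there were 7 (7.87%), against 9.02%, and in WT lists alone 3 (3.37%), against 10.8%. As K303R against WT chose the loci, these shares and the calls kept within 5 Mb windows are a description only.

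Other genes of the same pathways and families were set beside the members. Within 50 kb of 61 other genes of 4 lists, 145 well-covered regions were found, near 42 of the genes, and in both treatments 6 regions were called higher in K303R than in WT and 3 lower, where 2.58% and 3.54% of all well-covered regions were. All 6 lay in the list of the malate-aspartate shuttle and its partners, where 12 of 42 regions were called higher with E2 and 9 without E2, with medians of 1.27 and 1.37, and where 6.33% and 5.49% of all were. In the same list Y537S was called higher than WT at 12 regions with E2 and 14 without E2, where 6.06% and 8.05% of all were. Of the 6, 5 lay near GPT, which encodes an alanine aminotransferase, on chromosome 8, and so share a locus. They lay 1063 to 43803 bp from GPT, and all but the nearest were inside the spans of other genes. The nearest, 1063 bp from GPT, had 124 fragments with E2 and 98 without E2 in K303R, 115 and 112 in Y537S, and 57 and 51 in WT, with K303R to WT ratios of 2.47 with E2 and 2.63 without E2. The remaining region lay 8090 bp from SLC25A22, a mitochondrial glutamate carrier, at 1.55 with E2 and 1.66 without E2. Of 23 regions near other complex I assembly genes, 0 were called higher with E2 and 1 without E2, with medians of 1.03 and 1.10. Of 44 near folate genes, 0 with E2 and 1 without E2 were called higher, and 1 was lower in both treatments, 34491 bp from the folate receptor gene FOLR2 (0.553 with E2, 0.631 without E2). Of 36 near other olfactomedin family genes, 0 were called higher in either treatment, and 3 with E2 and 4 without E2 lower, including a pair inside GLDN, which encodes gliomedin (0.413 with E2 and 0.404 without E2 at one, 0.653 with E2 and 0.649 without E2 at the other), where 7.89% of all with E2 and 5.86% without E2 were called lower.

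The regions with the most similar profile over the 6 libraries were sought among the 33604 well-covered regions elsewhere, by Euclidean distance of centred log2 values. The nearest to GOT1 were regions 108229 bp from the potassium channel gene KCNU1 (distance 0.68), 1216 bp from the phosphatase gene PTP4A3 (0.88) and inside the tetraspanin gene CD82 (0.89). For NDUFAF6 they lay 15050 bp from POU5F1B (0.39), 53701 bp from the cytokine gene IL6 (0.52) and 314802 bp from TSNARE1 (0.57). The POU5F1B region had 94 fragments with E2 and 110 without E2 in K303R, 12 and 15 in Y537S, and 47 and 51 in WT, in the same order of lines as at NDUFAF6. For OLFML2B they were inside DCSTAMP (0.55), SLC45A4 (0.57) and the histone demethylase gene KDM4B (0.58). For SLC19A1 they lay 3488 bp from the sulfotransferase gene CHST12 (0.42), 53701 bp from the phosphatase gene DUSP5 (0.50) and inside EVI5L (0.51). Of these 12 regions, 6 were on chromosome 8, which held 5.20% of all well-covered regions and had a median K303R to WT ratio of 1.13 with E2 and 1.16 without E2.

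The limit of 50 kb around each gene set which regions were described. The outermost region inside it lay 39097 bp from the GOT1 span, 44168 bp from the NDUFAF6 span, 46967 bp from the OLFML2B span and 48255 bp from the SLC19A1 span, and the nearest outside lay 50362, 50973, 52164 and 51178 bp from them. At NDUFAF6 the region just inside had 33 fragments with E2 and 34 without E2 in K303R, 11 and 14 in Y537S, and 33 and 44 in WT. The one just outside had 35 with E2 and 59 without E2 in K303R, 18 and 17 in Y537S, and 23 and 51 in WT. The region just beyond the GOT1 window had 46 fragments with E2 and 60 without E2 in K303R, 47 and 54 in Y537S, and 72 and 63 in WT. Those at the edges of OLFML2B and just beyond SLC19A1 were each in 1 list, with 10 to 28 fragments.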

How the data were processed

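Per the labels' protocols, chromatin from 2 plates of MDA-MB-453 cells per library was precipitated for ERα, each library took 2 ng of DNA, and 75 bp were read from both ends. The tools MACS2, Bowtie2, bedtools, Picard and SAMtools and build hg38 were used, per the submitters' processing notes. Tool versions, any control library and the threshold for peaks were not given in the sources used. The authors called peaks in each library separately and deposited, per peak, a fold enrichment (a ratio), the p-value and q-value as −log10, a score and a summit position. The authors' score repeats the −log10 q on another scale and was not used. Read depth is not known.

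Per peak, whole summit fragments and the local background were solved from the fold, (fragments + 1)/(background + 1), and the Poisson p. The deposited p was matched within 0.01% in 100% of peaks. Peaks on chromosomes 1 to 22 and X that overlapped by at least 1 bp were merged, and the strongest peak per library was used. Intervals are exact Clopper-Pearson intervals of fragments in 2 libraries, which are not independent molecules where PCR copies remain. No test between conditions was run, since each group had 1 library and K303R against WT chose the regions. A check added after the values were seen asked where the backgrounds come from. For whole multiples, 41882 (K303R without E2) to 48606 (WT without E2) backgrounds per list were checked, where the lists held 106213 to 125869 peaks. Within 0.05 of a fragment, 100% of those checked in each list were whole multiples of 1 step per list. In 100% of peaks the multiple was at least the summit's fragments. The background is therefore taken as the fragments of the same ChIP library in a window 10 kb wide around the summit, the summit's own included.

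Alternatives were scaling by the lowest local background, centring within 5 Mb, fold instead of fragments, a minimum mean of 20, a 2-fold limit, summits within 100 bp, an overlap of 50%, −log10 q of at least 10 and a window of 25 kb. The members and gene lists were chosen with earlier results of these data known. Named were the members, genes within 50 kb whose span held a region, the genes of the 3 most similar regions, and list genes with a region called higher in K303R than in WT in both treatments. ATF6, FOLR2 and GLDN were named after their values were seen. Gene spans and promoters are from RefSeq (GRCh38.p14). Python 3.11.15, numpy 2.4.6, pandas 2.3.3 and scipy 1.17.1 were used. Exon positions, peak sequences and the ERα protein sequence were not used here.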

Additional observations from a re-analysis of the deposited data

Results flagged for a closer look

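At the NDUFAF6 region on chromosome 8 (95112509 to 95113277) the mutants stood on opposite sides of WT. With E2, the ratio of K303R to WT was 3.17 and that of Y537S to WT 0.310. Without E2, the values were 3.26 and 0.324. Both ratios share the WT library of their treatment, and with 1 library per group the difference between them was not tested. The Y537S lists also carry another peak-name tag, which cannot be told apart from the line.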

How the results depend on the processing

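By fold enrichment instead of fragments, the ratio of K303R to WT was 2.04 with E2 and 1.98 without E2 at GOT1, 1.65 and 1.77 at NDUFAF6, 1.41 and 1.30 at OLFML2B, and 1.68 and 1.78 at SLC19A1. No direction of a called value reversed under the alternatives run. Without E2, regions called higher in K303R than in WT numbered 3 under scaling by the lowest local background, against 9. Of all well-covered regions, 0.642% were higher under that scaling, against 5.49%. Those called lower numbered 1 under that scaling and 1 within 5 Mb windows, against 0. Of all regions, 22.7% were lower under that scaling, against 5.86%. For Y537S against WT without E2, 3 were higher past 2-fold, against 5, and 1 was lower under each of these 3 settings, against 2. Of all regions, 8.05% were higher and 9.15% lower in the main setting, and 3.44% were lower when scaled by the lowest local background. Shares over all regions for 5 Mb windows and the 2-fold limit are not given here. With −log10 q of at least 10, merged regions numbered 30 at NDUFAF6, against 46, and 6 at OLFML2B, against 11. The fewer regions follow from the stricter limits, and the other causes were not tested. Of all recomputed values, 190 stayed within the counting interval of the ratio or within 1.5 times the count, and 46 moved further. Among the 190 were 36 under the limit of 100 bp on summits, which could not move because the summits lay within 93 bp. By fold enrichment 16 values moved and 20 stayed. Those that moved included the K303R to WT ratios of all 4 regions in both treatments. Of 144 calls at the K303R-high regions recomputed under 4 settings, 6 changed. The lower minimum mean and the 2-fold limit could change none of them. These regions pass the stricter minimum, and each called ratio was already past 2-fold. All 6 changes therefore came from scaling by the lowest local background or centring within 5 Mb. Fold enrichment was not among the 4 settings. Scaling by the lowest local background lost the calls of K303R above WT without E2 at OLFML2B (2.21) and SLC19A1 (2.32), and gained K303R below Y537S without E2 at OLFML2B (0.478) and E2 above no E2 in K303R at OLFML2B (2.28) and SLC19A1 (2.18). Centring within 5 Mb gained E2 above no E2 in K303R at OLFML2B (1.96). Summits held 15 to 126 fragments at the 4 regions, which limits ratios to the intervals given. The labels give no replicate numbers to pair by, and the ratios between lines were taken within each treatment.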
